A study of Mus musculus with 14 samples.

Results

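Fos and Jun family genes and 3 further rapid-response genes were followed in the striatum of R6/2 and wild-type mice. The genes were Fos, Fosb, Fosl2, Jun, Junb, Jund, Dusp1, Ier2 and Btg2, and every probe set carrying only their symbols in the platform's gene table was taken. This gave 11 probe sets of 9 genes, out of 22626 probe sets tested and 12393 genes with a named probe set. Jun and Btg2 had 2 probe sets each and the other genes 1. In R6/2 mice a transgene holds exon 1 of human HTT with an expanded CAG repeat, driven by a human HTT promoter fragment, and are a model of Huntington disease in which the mouse's own Htt genes remain. Both genotypes were on a CBA by C57BL/6 background and were taken at 6 weeks of age. All mice of both groups had been given saline 30 to 60 minutes before sacrifice, and no group without an injection was analysed here. The 14 arrays served as controls of 2 drug studies, taken here as cohorts from the start of the titles: M.C with 4 R6/2 and 4 wild-type arrays, and Mith with 3 of each. Replicates 1 to 4 of each genotype are M.C and replicates 5 to 7 are Mith.

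Fos and Jun proteins are leucine zipper transcription factors that pair with each other to form AP-1, which binds a short palindromic DNA element. Several of the genes are immediate early genes, which neurons transcribe within minutes of calcium entry or growth factor signalling through CREB and SRF bound to their promoters, without first making new protein. In the striatum, dopamine and glutamate inputs are known to raise Fos, Fosb and Junb, and handling or injection can do so as well.

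Promoter windows are shown first, because elements bound by CREB and SRF are a known route of induction of such genes. RefSeq promoters of assembly GRCm38.p6 were matched for 8 of the 9 genes, all but Ier2, and the 250 bases before each start were searched. The full cyclic AMP response element TGACGTCA, the site of CREB, was found in 2 of these 8, Dusp1 and Btg2, and in 1.55% of 32817 promoters. This element is its own reverse complement and was counted once. Its core TGACG, searched on both strands and counted inside the full element too, was found in 5 of 8 and in 17.7% of all promoters. The windows around these matches read as follows, 5′ to 3′ along the gene, with the matches in capitals. The Dusp1 window is chr17:26508593-26508672 and the Btg2 window chr1:134079276-134079355, both on the minus strand and both running from 200 to 121 bases before the start.
Dusp1: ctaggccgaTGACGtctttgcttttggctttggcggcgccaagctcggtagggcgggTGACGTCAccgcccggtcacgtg
Btg2: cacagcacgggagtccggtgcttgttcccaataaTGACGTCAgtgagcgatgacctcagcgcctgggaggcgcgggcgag

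The other genes with a match carried the core alone. The Fos window is chr12:85473750-85473869 on the plus strand, from 140 to 21 bases before the start, and also holds TATAAA, 33 bases before the start. The Junb window is chr8:84978829-84978888 on the minus strand, from 140 to 81 bases before the start. The Fosb window is chr7:19310086-19310145 on the minus strand, from 100 to 41 bases before the start.
Fos: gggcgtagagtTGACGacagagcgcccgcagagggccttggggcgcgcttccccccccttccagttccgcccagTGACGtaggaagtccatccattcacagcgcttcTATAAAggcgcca
Junb: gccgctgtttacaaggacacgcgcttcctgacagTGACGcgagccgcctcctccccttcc
Fosb: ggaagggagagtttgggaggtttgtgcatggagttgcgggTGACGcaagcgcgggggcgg

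In Fos the core began 129 and 66 bases before the start, in Junb 106 and in Fosb 60. The Fosb start used is chr7:19310045, while the gene span given below reaches 19310118 on the minus strand. The Fosb core thus lies before the start used but inside that gene span. In Dusp1 the full element began 143 bases before the start and a further core 191, and in Btg2 the full element began at 166. TATAAA, searched on the gene's strand alone, was in 1 of 8 members and 7.60% of promoters. The AP-1 element TGANTCA, present in 6.75% of promoters, and the CArG box of SRF, present in 1.47%, were both searched on both strands. They were found in 0 of the 8 windows of 250 bases. Only exact matches were counted, and sequence farther upstream was not searched, so elements there would be missed. A match describes the letters and does not show binding.

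Values are log2 probe set signals, and a fold change is R6/2 minus wild-type in the fit with a cohort term unless a cohort is named. A probe set was called where limma's Benjamini-Hochberg adjusted p over all 22626 probe sets was under 0.05, and ± gives the SE of a difference or the SD of a level. The number of arrays limits the precision, and since the labels do not tie each array to a separate animal, p-values measure the spread between arrays. In whole striatum, fewer cells of a type and less RNA per cell cannot be told apart. All 8 measured striatal projection neuron markers were above the median of all probe sets. So were 6 of 6 astrocyte, 5 of 5 oligodendrocyte, 5 of 6 thalamic and 5 of 6 microglial markers. Fewer were above it for cortex (2 of 4), vessels (3 of 8), choroid plexus (1 of 3) and blood (0 of 2). This level alone thus does not set striatum apart from thalamus. Of the 8 striatal projection neuron markers 5 fell in R6/2, with a median of -0.59. Their mean level ran from 9.61 to 10.03 in R6/2 and from 9.87 to 10.7 in wild-type arrays. In mature oligodendrocytes 3 of 5 markers fell, with a median of -0.30, and levels were 10.01 to 10.8 in R6/2 against 10.1 to 11.1 in wild-type. Astrocyte, thalamic, microglial, vessel, blood, choroid plexus and cortical markers had no called member, and the medians of the astrocyte and thalamic markers were both -0.29. The 3′ control probe set of Actb exceeded its 5′ control, a sign of RNA quality, by 0.608 ± 0.181 in the 7 R6/2 arrays and by 0.373 ± 0.143 in the 7 wild-type arrays (SD, n = 7 each). R6/2 replicate 4 correlated least with its cohort, at a mean Spearman rho of 0.981, and an array weight of 0.280. The part of these markers and measures in the results below was not tested, apart from the Actb difference.

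In R6/2, Jun fell on 1 of its 2 probe sets and Dusp1 fell, while no other member was called. The 2 called probe sets are 2 of 11, beside 2.55% of all probe sets called in either direction and 2.19% called lower in R6/2. Jun stood at 68.8% and Dusp1 at 75.4% of wild-type. All 11 estimates lay below 0, with a median of -0.12, while 45.2% of all probe sets lay below 0 and their median was 0.01. An unadjusted p under 0.05 was reached by 4 of 11 member probe sets (36.4%) and by 15.2% of all probe sets. The 4 were both Jun probe sets and those of Junb and Dusp1. Counted with 1 probe set per gene, the brighter one of Jun among them, 1 of the 9 genes was called, beside 2.53% of 12393 genes.

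**Figure D1:**
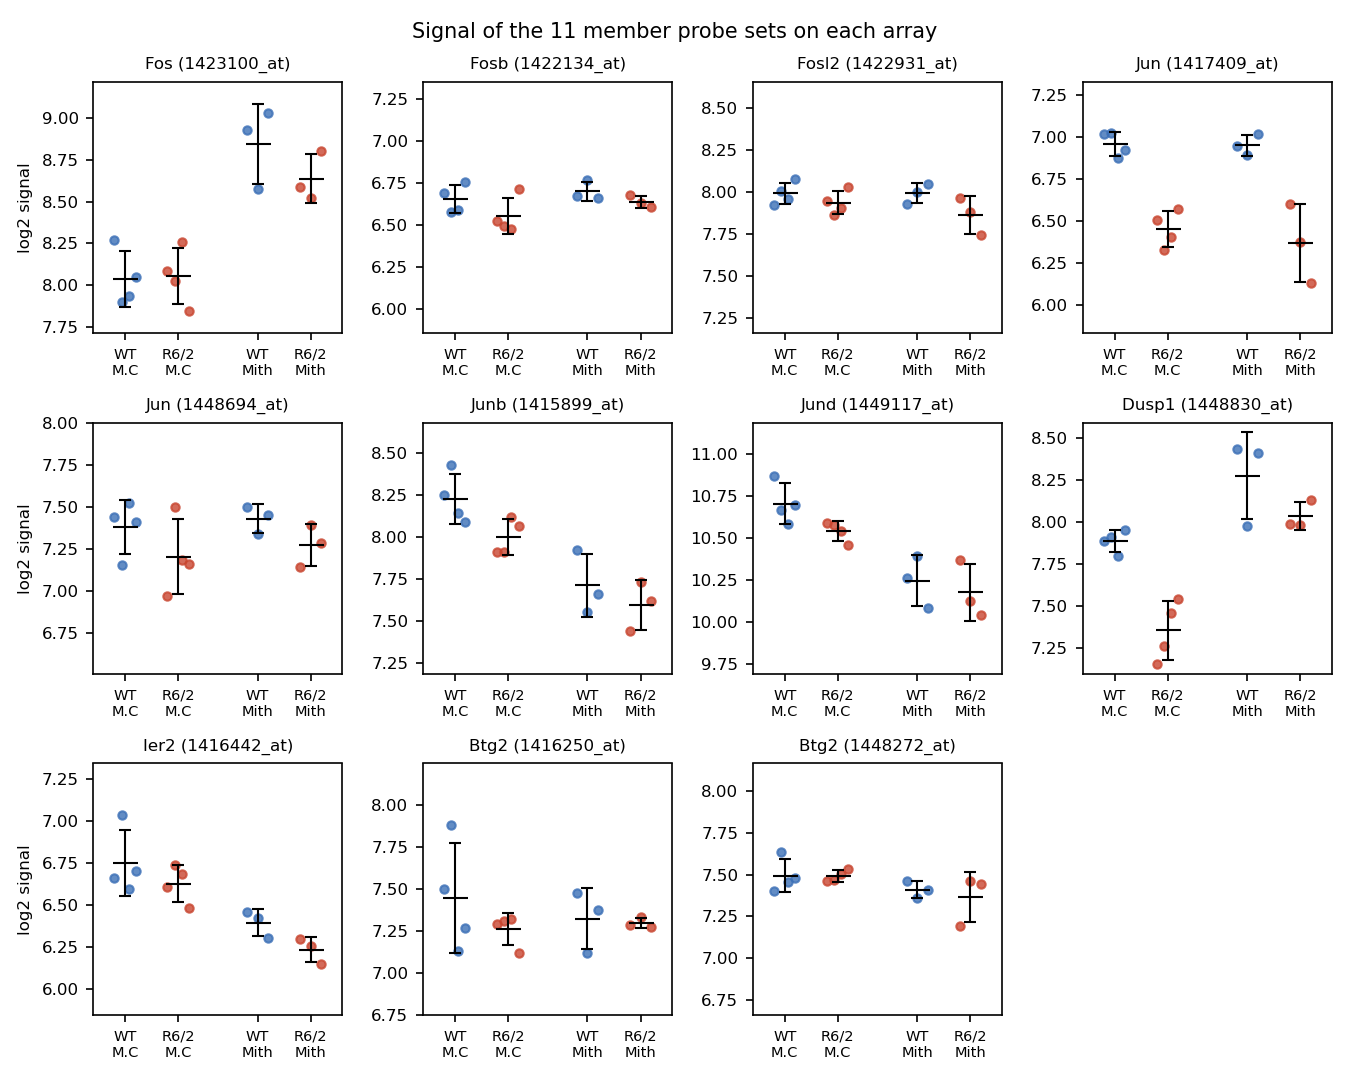
Log2 signal of each of the 11 probe sets on the 14 arrays, with wild-type in blue and R6/2 in red for M.C and Mith, and bars for the mean and SD of each group. Each panel spans the same height in log2 units on its own range. On the Jun probe set 1417409_at the R6/2 arrays reach 6.60 at most while no wild-type array is below 6.88, and Fos and Dusp1 are lower in M.C than in Mith.

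Fos, the founding Fos gene and a common marker of recent neuronal activity, lies at chr12:85473890-85477274. In M.C its R6/2 arrays read 8.08, 8.03, 8.26 and 7.85 and its wild-type arrays 8.27, 7.90, 7.94 and 8.05. In Mith the R6/2 arrays read 8.59, 8.52 and 8.80 and the wild-type arrays 8.93, 8.58 and 9.03. The genotypes overlapped in both cohorts, and every Mith array was above every M.C array. The fold change was -0.08 ± 0.09, with a 95% interval from -0.27 to 0.10 (limma adjusted p = 0.719). Within cohorts it was 0.01 ± 0.10 in M.C and -0.21 ± 0.13 in Mith.

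Fosb, whose truncated product ΔFosB accumulates in striatal neurons after repeated stimulation, lies at chr7:19302696-19310118. Its R6/2 arrays ran from 6.48 to 6.71 in M.C and from 6.60 to 6.68 in Mith, and its wild-type arrays from 6.58 to 6.75 and from 6.66 to 6.76. The genotypes overlapped, and the fold change was -0.08 ± 0.05 (limma adjusted p = 0.482). Fosl2 at chr5:32136472-32157840 encodes Fra-2, a Fos protein with slower and longer induction. It ran from 7.86 to 8.03 in M.C R6/2 arrays and from 7.92 to 8.08 in M.C wild-type arrays, and Mith gave 7.74 to 7.96 and 7.93 to 8.05. The fold change of Fosl2 was -0.09 ± 0.05 (limma adjusted p = 0.456). Neither gene passed the test in any comparison made.

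Jun, at chr4:95049036-95052222, encodes c-Jun, the AP-1 partner that JNK kinases phosphorylate. On probe set 1417409_at the M.C R6/2 arrays read 6.51, 6.33, 6.41 and 6.57, and the M.C wild-type arrays 7.02, 7.02, 6.88 and 6.92. The Mith R6/2 arrays read 6.60, 6.37 and 6.13, and the Mith wild-type arrays 6.95, 6.89 and 7.02. All R6/2 arrays were below all wild-type arrays in both cohorts. The same held in 1.05% of all probe sets and for no other member. The fold change was -0.54 ± 0.07, with a 95% interval from -0.68 to -0.40 (limma adjusted p = 8.87e-04), or 68.8% of wild-type with an interval from 62.4% to 75.8%. In M.C the fall was -0.51 ± 0.07 (limma adjusted p = 0.00582), and in Mith the value was -0.58 ± 0.12 (limma unadjusted p = 5.18e-04, adjusted p = 0.237). This probe set was below the median level of all probe sets.

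The other Jun probe set, 1448694_at, gave overlapping genotypes. In M.C its R6/2 arrays read 6.97, 7.50, 7.19 and 7.16 and its wild-type arrays 7.44, 7.15, 7.52 and 7.41. In Mith it read 7.14, 7.39 and 7.28 in R6/2 and 7.50, 7.34 and 7.45 in wild-type. R6/2 replicates 1 and 5 lay below all wild-type arrays, the other 5 R6/2 arrays lay within the wild-type range, and none lay above it. The fold change was -0.17 ± 0.08 (limma unadjusted p = 0.0448, adjusted p = 0.314). The platform's table assigns both probe sets to the same gene, and where their probes lie within its transcript was not analysed here. The change on 1417409_at minus that on 1448694_at was -0.38, with an exact two-sided permutation p of 0.0200 over 1400 arrangements of genotype within cohorts, 0.0400 after adjustment for the 2 genes compared. This comparison was chosen after the values were seen. In Btg2, the other gene with 2 probe sets, the same difference was -0.08 (exact permutation p = 0.389).

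**Figure D2:**
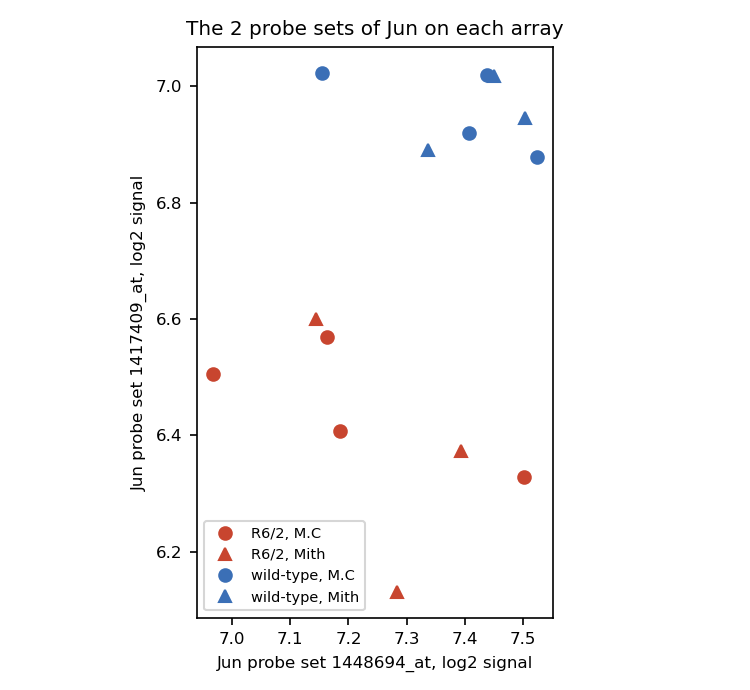
Log2 signal of the 2 Jun probe sets against each other on the 14 arrays, wild-type in blue and R6/2 in red, M.C as circles and Mith as triangles. The genotypes part along the axis of 1417409_at, with R6/2 at 6.60 or below and wild-type at 6.88 or above, and overlap along the axis of 1448694_at.

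Junb, at chr8:84976909-84978748, encodes an AP-1 partner that activates less strongly than c-Jun and can oppose it. In M.C its R6/2 arrays read 7.91, 7.91, 8.12 and 8.06 and its wild-type arrays 8.25, 8.43, 8.14 and 8.09. In Mith the R6/2 arrays read 7.44, 7.73 and 7.62 and the wild-type arrays 7.92, 7.55 and 7.66. The genotypes overlapped in each cohort, in M.C by 1 R6/2 array above the lowest wild-type array. The fold change was -0.18 ± 0.07 (limma unadjusted p = 0.0259, adjusted p = 0.242). The M.C arrays alone gave -0.23 ± 0.09 and the Mith arrays alone -0.11 ± 0.12.

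Jund, at chr8:70697739-70700616, encodes the Jun protein that most resting cells make steadily. Its R6/2 arrays ran from 10.46 to 10.59 in M.C and from 10.04 to 10.37 in Mith. Its wild-type arrays ran from 10.58 to 10.87 and from 10.08 to 10.39. The genotypes overlapped narrowly in M.C and widely in Mith, and the fold change was -0.12 ± 0.07 (limma adjusted p = 0.408).

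Dusp1, at chr17:26505591-26508472, encodes MKP-1, a nuclear phosphatase that switches off JNK, p38 and ERK kinases and is itself rapidly induced. In M.C its R6/2 arrays read 7.15, 7.26, 7.46 and 7.54 and its wild-type arrays 7.88, 7.91, 7.80 and 7.95. In Mith the R6/2 arrays read 7.99, 7.98 and 8.13 and the wild-type arrays 8.44, 7.98 and 8.41. All M.C R6/2 arrays were below all M.C wild-type arrays. In Mith the genotypes overlapped because wild-type replicate 6 lay at the R6/2 level. The fold change was -0.41 ± 0.08, with a 95% interval from -0.58 to -0.23 (limma adjusted p = 0.0161), or 75.4% of wild-type with an interval from 66.7% to 85.2%. In M.C the fall was -0.53 ± 0.09 (limma adjusted p = 0.0104), or 69.1% of wild-type, and in Mith the value was -0.24 ± 0.12 (limma adjusted p = 0.618). Once adjusted for that Actb control difference, the fold change of Dusp1 was -0.32 (limma adjusted p = 0.250), and that of Jun 1417409_at was -0.44 (limma adjusted p = 0.0372). With no cohort term the fold change of Dusp1 was the same, -0.41, and its call was lost (limma adjusted p = 0.356).

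Ier2, at chr8:84661331-84662852, encodes a small nuclear protein induced early after growth factors. Its R6/2 arrays read 6.61, 6.74, 6.68 and 6.48 in M.C and 6.29, 6.25 and 6.15 in Mith. Its wild-type arrays read 6.66, 7.04, 6.59 and 6.70 in M.C and 6.46, 6.42 and 6.30 in Mith. R6/2 lay below wild-type without overlap in Mith, by a narrow margin, and the genotypes overlapped in M.C. The fold change was -0.14 ± 0.07 (limma unadjusted p = 0.0551, adjusted p = 0.343).

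Btg2, at chr1:134074865-134079155, encodes an antiproliferative protein that recruits the CCR4-NOT deadenylase to mRNAs. Its probe set 1416250_at ran from 7.12 to 7.33 in R6/2 and from 7.12 to 7.88 in wild-type arrays, with wild-type replicate 2 the highest. Probe set 1448272_at ran from 7.19 to 7.53 in R6/2 and from 7.36 to 7.63 in wild-type. The fold changes were -0.12 ± 0.09 (limma adjusted p = 0.614) and -0.02 ± 0.05 (limma adjusted p = 0.911). The genotypes overlapped on both.

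**Figure D3:**
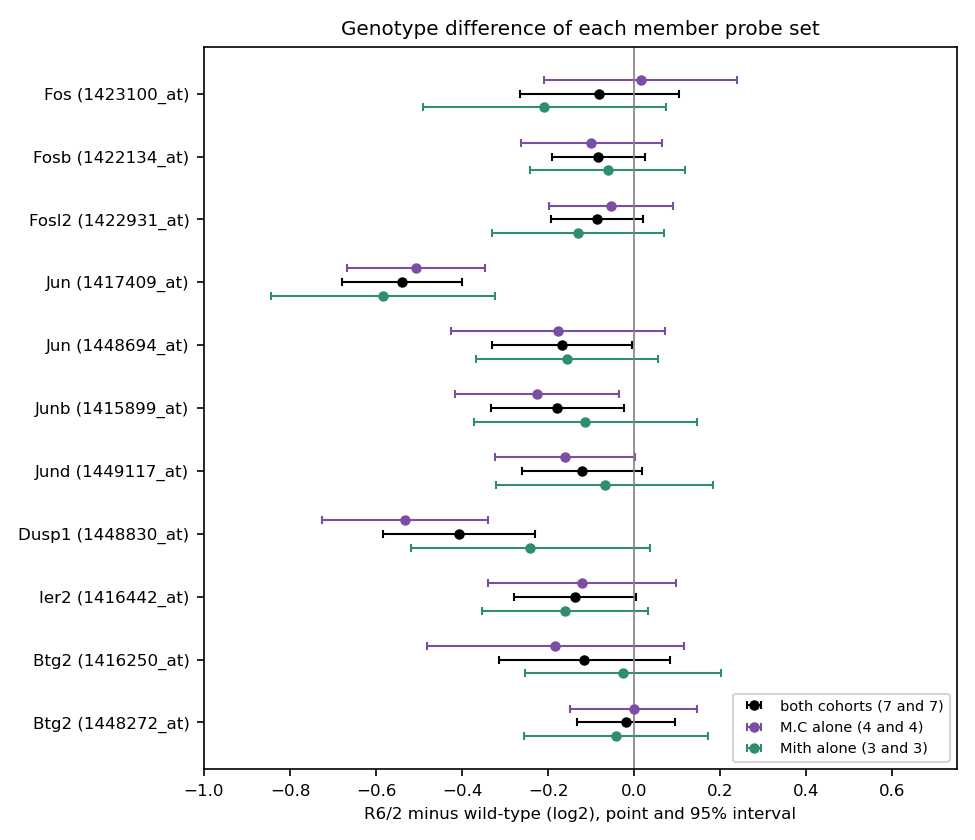
R6/2 minus wild-type on the log2 scale for each of the 11 probe sets, as points with 95% intervals, for both cohorts together (black), M.C alone (purple) and Mith alone (green). The interval of Jun 1417409_at is below 0 in all 3 fits, and those of Dusp1 and Junb in both cohorts together and in M.C. That of Jun 1448694_at is just below 0 in both cohorts together, and all others include 0.

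Within M.C, 10 of 11 member estimates were below 0, as were 46.9% of all probe sets. Jun 1417409_at and Dusp1 were called in M.C, 2 of 11, beside 2.31% of all probe sets called lower there. Within Mith, 11 of 11 estimates were below 0, beside 49.6% of all probe sets. Limma called 0% of all probe sets in Mith, 0 of 22626. An unadjusted p under 0.05 was reached there by 2008 probe sets (8.87%) and by 1 of 11 member probe sets, Jun 1417409_at. The difference between the cohorts was tested as an interaction, which called 0% of probe sets. An unadjusted p under 0.05 was reached by 2213 (9.78%), with 0 of 11 member probe sets among them. The M.C change minus the Mith change was -0.29 ± 0.16 for Dusp1 (limma adjusted p = 0.543), 0.22 ± 0.17 for Fos (0.660) and 0.08 ± 0.14 for Jun 1417409_at (0.870). The change of Dusp1 was therefore not shown to differ between cohorts, and its 95% interval for that difference ran from -0.62 to 0.04.

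A call for 1 gene and none for Fos does not show that they differ, so each member's change was compared with that of Fos on the same arrays. The value is the mean of the differences in M.C and in Mith, both cohorts counting equally, so it need not equal the difference of the fold changes above. Each gene was first taken on its brighter probe set, which for Jun is 1448694_at. The change of Dusp1 minus that of Fos was -0.29 ± 0.08 (exact two-sided permutation p = 0.0257, 0.206 adjusted over the 8 members compared). Within M.C that difference was -0.55 and within Mith -0.03. The other 7 differences from Fos lay between -0.07 and 0.07, with exact permutation p from 0.504 to 0.969 and an adjusted p of 0.969 for each. None of these 8 was called. With the mean of both Jun probe sets in place of 1448694_at, the value of Jun was -0.26 (exact permutation p adjusted over the 8 = 0.126). In a comparison added after the values were seen, all 10 probe sets of the other members were set against Fos, and 1 was called. Jun 1417409_at changed by -0.45 ± 0.14 relative to Fos (exact permutation p = 0.00429, 0.0429 adjusted over the 10), with -0.52 in M.C and -0.37 in Mith. That call was lost without R6/2 replicate 7 (-0.35, adjusted p = 0.129) and without any 1 of the 7 wild-type arrays, with adjusted p up to 0.129 and values from -0.52 to -0.35 over the 14 arrays left out in turn.

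For Fos, Dusp1, Junb, Jund and Ier2 the estimated cohort difference exceeded that of genotype in size, which was not tested. With genotype as a term, 5 of 11 probe sets were called between M.C and Mith, beside 32.3% of all probe sets. Genotype called 2.55% of all probe sets, so more calls by cohort than by genotype were not particular to the members. Fos was lower in M.C, at -0.69 ± 0.09 (limma adjusted p = 2.99e-05), at 61.8% of its Mith level. Dusp1 was lower too, at -0.54 ± 0.08 (limma adjusted p = 1.84e-04), at 69.0%. The other 3 were higher in M.C. Junb was at 138% of its Mith level, 0.46 ± 0.07 (limma adjusted p = 2.16e-04). Jund was at 133%, 0.41 ± 0.07 (limma adjusted p = 2.19e-04), and Ier2 at 130%, 0.37 ± 0.07 (limma adjusted p = 5.84e-04). Members moved both ways between cohorts, Fos and Dusp1 one way and Junb, Jund and Ier2 the other. The arrays of the cohorts did not overlap for Fos and Dusp1, lower in M.C, and for Ier2 and Jund, higher in M.C. That is 4 of 11 member probe sets, beside 8.98% of all probe sets. Fosb, Fosl2, both Jun probe sets and both Btg2 probe sets were not called, with values from -0.07 to 0.10.

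**Figure D4:**
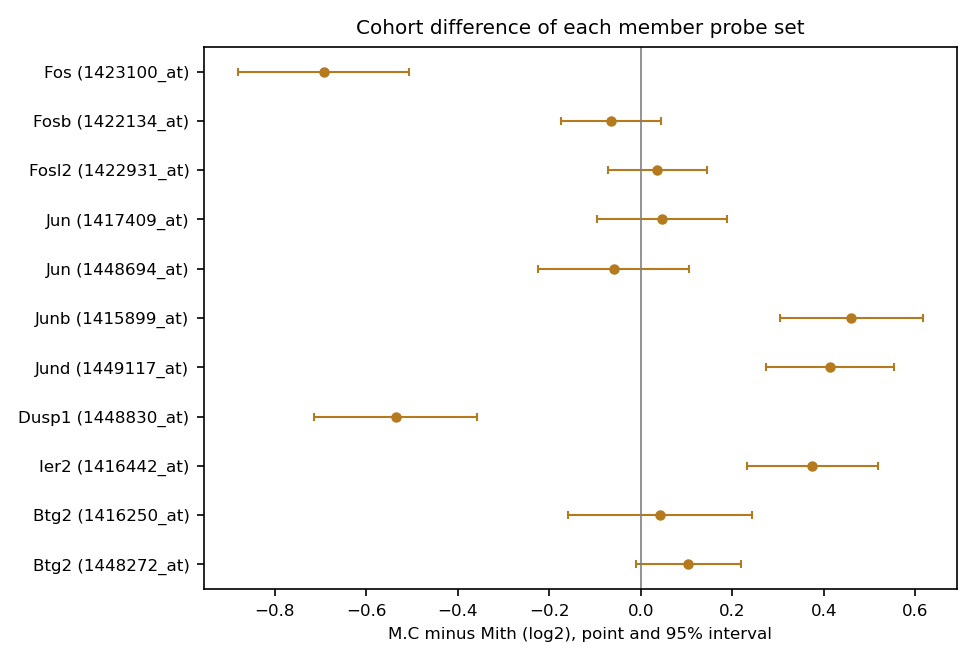
M.C minus Mith on the log2 scale for each of the 11 probe sets, as points with 95% intervals, with genotype as a term over all 14 arrays. Fos and Dusp1 lie below 0 at -0.69 and -0.54, Junb, Jund and Ier2 lie above 0 between 0.37 and 0.46, and the intervals of the other 6 probe sets include 0.

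Markers of some cell types differed between the cohorts too, beside 32.3% of all probe sets called. The 6 thalamic markers had a median of -0.96 in M.C minus Mith, with 5 called, and a mean level of 7.31 to 7.69 in M.C against 7.72 to 8.91 in Mith. All 5 measured oligodendrocyte markers were called, with a median of -0.44. Of 8 striatal projection neuron markers 3 were called, and the median was 0.23. Of 8 vessel markers 4 were called, and they had a median of 0.12 and a mean level of 6.87 to 7.05 in M.C against 6.76 to 6.89 in Mith. Of 6 astrocyte markers 1 was called, and of 6 microglial markers 1. Of 4 measured cortical, 2 blood and 3 choroid plexus markers 0 were called. The part of the cell type markers in the cohort differences of Fos, Dusp1, Junb, Jund and Ier2 was not tested. Cohort cannot be told apart from any other difference between the drug studies, such as the interval from injection to sacrifice.

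Since every animal was injected shortly before sacrifice, the members were also compared from array to array, with values centred within genotype and cohort over the 14 arrays. None of the 8 members was called against Fos. Dusp1 had the highest correlation, r = 0.45 (permutation p = 0.254, adjusted p = 0.677) with rho = 0.34 (permutation p = 0.348). Without wild-type replicates 6 and 1, the arrays farthest from the median of Fos, r was 0.27. Within M.C r was -0.11, and within Mith, over only 6 arrays, it was 0.94. Neither of these values was tested, and no relation of Fos and Dusp1 was shown. Fosl2 had the lowest value, r = -0.44 (permutation p = 0.145, adjusted p = 0.677) with rho = -0.45.

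Of all 36 pairs of members, 15 had r above 0 and 2 an unadjusted permutation p under 0.05, and none passed adjustment over the 36 pairs. These pairs were added after the data had been seen. Junb and Btg2 had r = 0.75 (permutation p = 0.00733, adjusted p = 0.264) and rho = 0.76 (permutation p = 0.00752, adjusted p = 0.271). The correlation of Junb and Btg2 was 0.66 without 2 arrays, 0.68 within M.C and 0.80 within Mith. Fosb and Fosl2 had r = 0.58 (permutation p = 0.0360, adjusted p = 0.593), which was 0.28 without 2 arrays. No pair was shown to vary together from array to array.

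**Figure D5:**
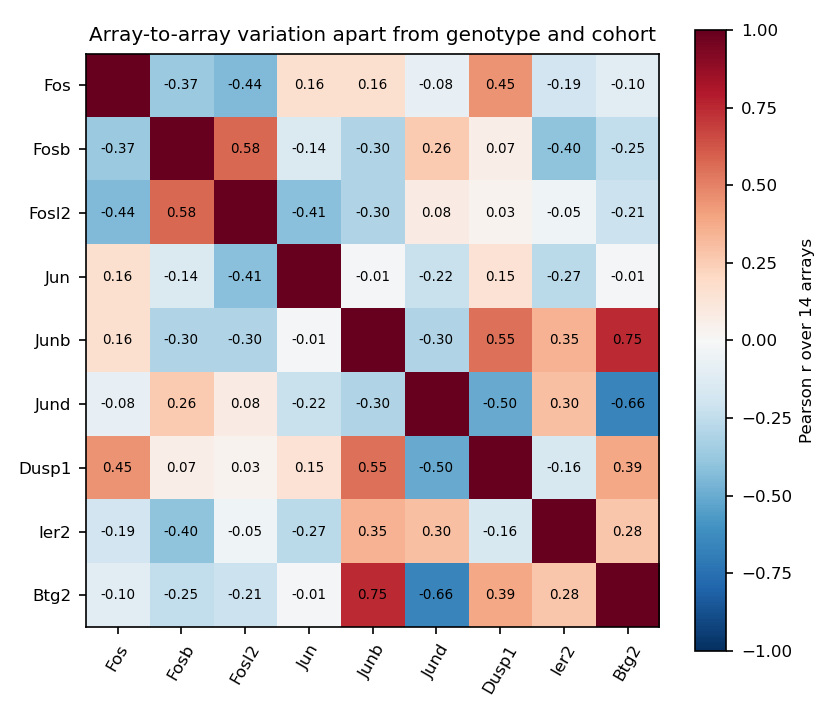
Pearson correlation of each pair of the 9 genes over the 14 arrays, on the brighter probe set of each gene and with values centred within genotype and cohort, on a colour scale from negative to positive. Junb with Btg2 is highest at 0.75 and Jund with Btg2 lowest at -0.66, and Fos has no value above 0.45.

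Among 6995 other genes searched, those whose array-to-array pattern over the 14 arrays was most like that of Fos were Rps14 (r = 0.87), Washc2 (0.85), Tln1 (0.84), Arl3 (0.83) and Synpr (0.83). For Dusp1 they were Arpc5l (0.89), Emc7 (0.82), Acp2 (0.82), Trmt2a (0.81) and Sct (0.80). These are the highest of many values on the same 14 arrays and are given as a description. Any difference in RNA quality or labelling between arrays was not removed from them, and its part was not tested. None of the 10 is a member of the gene lists used here.

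The wider pathway was read from gene lists, 1 probe set per gene, beside 2.53% of all genes called and a median of 0.01 over all genes. Of 25 measured other AP-1 and CREB family genes, 1 fell and none rose, with a median of 0.01. The gene that fell was Dbp, at -0.38 ± 0.09 (limma adjusted p = 0.0359). Dbp is a circadian output factor of the leucine zipper class and not a Fos, Jun or CREB gene. No other gene of the list was called. Values were 0.09 for Fosl1, 0.11 for Atf3, 0.01 for Jdp2 and 0.08 for Batf. The closest to a call was Atf2, at -0.32 ± 0.09 (limma adjusted p = 0.0761), named after its value was seen. The other probe sets of Atf2 lay between -0.37 and -0.14. Creb1, which binds the element shown in the Dusp1 and Btg2 promoters, was -0.02 and not called. The Dbp call was lost on leaving out any of R6/2 replicates 1, 2 and 7 or wild-type replicates 1, 2, 3, 4, 6 and 7, and the count was 2 without replicate 5 of either genotype.

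Upstream, none of 24 measured MAP kinase and SRF signalling genes was called, with a median of -0.03. The count was 1 without R6/2 replicate 4 or 6 or wild-type replicate 5. The closest were Mapk9, which encodes the JNK2 kinase that phosphorylates c-Jun, at -0.25 (limma adjusted p = 0.0599), and Srf, at -0.19 (limma adjusted p = 0.164), both named after their values were seen. Of 12 measured other MAP kinase phosphatases, which act on the same kinases as Dusp1, 3 fell and none rose, with a median of -0.12. Dusp14 fell by 0.52 ± 0.10 on the log2 scale (limma adjusted p = 0.00998), to 69.8% of wild-type. Ptpn5, the striatum-enriched phosphatase STEP, fell by 0.55 ± 0.11 (limma adjusted p = 0.0141), to 68.3%, and its other probe sets lay between -0.77 and -0.19. Dusp7 was at -0.26, or 83.2% of wild-type (limma adjusted p = 0.0458), and its 2 other probe sets were at -0.17 and -0.14. With 1 array left out at a time, the count of this list was 2 or 3, and it was 2 without R6/2 replicate 1.

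Of 40 measured other rapid-response genes, 9 fell and none rose, with a median of -0.11. The 6 with the smallest p were Egr2, Arc, Egr1, Ier5, Homer1 and Nptx2. Egr2 and Egr1, zinc finger factors induced beside Fos, were at -0.55 ± 0.07 (limma adjusted p = 8.87e-04) and -0.65 ± 0.10 (limma adjusted p = 0.00318). Arc, which acts at synapses, was at -0.58 ± 0.07 (limma adjusted p = 9.62e-04). Other probe sets of these genes were at -0.35 for Egr2, from -0.39 to -0.09 for Ier5, from -0.58 to -0.10 for Homer1 and at 0.02 for Nptx2, whose probe sets thus differed in sign. Without wild-type replicate 4 the count of the list was 5. With the Actb covariate it was 2, and that of the phosphatases 0, and with no cohort term they were 4 and 1. Between cohorts Egr2, Arc, Egr1 and Ier5 were not called, with M.C minus Mith from -0.10 to 0.05, while Homer1 and Nptx2 were higher in M.C by 0.54 and 0.31. The value of Fos was -0.69, and the difference between Fos and these genes was not tested. Of 4 measured other BTG and TOB genes none was called, with a median of -0.03. Of 17 measured genes reported as AP-1 targets, 1 fell, Penk, the enkephalin precursor of striatal projection neurons, at -0.89 ± 0.11 (limma adjusted p = 8.87e-04), and the median was -0.02. Leaving out wild-type replicate 5 made that count 3, and leaving out R6/2 replicate 5 or 7 made it 2.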

How the data were processed

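RNA of 14 samples was measured on an Affymetrix mouse array. The authors deposited log2 probe set signals, a unit read here from the values, which ran from 2.96 to 14.5. The summarisation and normalization behind these values are not given in the sources used here. No scans, detection calls or probe sequences were used. Of 22690 probe sets, 64 controls were left out, and all arrays were shifted to 1 common median, since the deposited medians ran from 7.07 to 7.17. Symbols came from the platform's table, brought up to date by gene ID for 20351 probe sets. The members and gene lists were chosen with earlier results of these data known.

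Limma 3.58.1 (R 4.3.3) fitted genotype and cohort to every probe set, two-sided, and again within each cohort and with an interaction. Single values were tested by exact permutation of genotype within cohorts (1400 arrangements) and correlations with 100000 resamples, in Python 3.11.15 with scipy 1.17.1. The fit and the permutation tests were tested on simulated data. A gene's representative probe set was that with the highest mean, passing over IDs ending in _x_at or _s_at where it had another. Every member probe set is reported. Called genes of each list are named up to 6 by smallest p, and 5 genes most like Fos and Dusp1 by r. Alternatives were to leave out the cohort term or 1 array at a time, to use deposited or quantile-normalized values or the brighter probe sets, to weight arrays, to let variances be trended and robust, to add the Actb difference as covariate, and to average a gene's probe sets. Promoters are RefSeq's, from 250 bases before to 50 after a start.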

Additional observations from a re-analysis of the deposited data

Results flagged for a closer look

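Both Btg2 probe sets had an R6/2 array far from the rest, by Dixon's test of the gap to the nearest array over the group's range. On 1416250_at R6/2 replicate 4 was lowest at 7.12. The nearest of the 7 R6/2 arrays was at 7.28, a gap of 0.744 of the range against a critical value of 0.568. Among the 4 M.C R6/2 arrays the nearest was at 7.29 and the gap 0.852, against 0.829. On 1448272_at R6/2 replicate 5 was lowest at 7.19, with the nearest of 7 at 7.44 and a gap of 0.728. In all, 44 groups were examined, and chance flags about 1 in 20.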

How the results depend on the processing

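No paired analysis was possible because the numbers in the sample titles are not shared between the genotypes, and the replicate numbers used here only follow the order of the record. Of 239 alternatives for the member probe sets over both cohorts, 234 kept direction and side of the threshold. The count of 2 called member probe sets was 2 on leaving out any 1 array. It was 1 with the Actb difference as covariate, 1 with no cohort term and 1 with brighter probe sets only, which leaves out Jun 1417409_at as dim. Without single arrays Jun 1417409_at kept an adjusted p from 5.27e-04 to 0.00309 and Dusp1 one from 0.00233 to 0.0416. The mean of both Jun probe sets gave -0.35 (limma adjusted p = 0.000623). The count over all probe sets, 578, was 56 with the Actb covariate, 1333 with array weights and 100 with no cohort term. On leaving out 1 array it ran from 280 without wild-type replicate 3 to 879 without wild-type replicate 5. The cause was not tested.

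Values near 0 changed sign, and none of them was called. Within M.C Btg2 1448272_at was 0.029 as deposited and 0.024 after quantile normalization. The interaction of Jun 1448694_at was 0.0082 as deposited, and that of Jund 0.098 after quantile normalization, which also gave -0.0016 for Fosb and 0.015 for Jund relative to Fos. Leaving out 1 array, genotype values ran from -0.037 to 0.015 for Btg2 1448272_at over both cohorts, from -0.032 to 0.045 for it and -0.053 to 0.092 for Fos within M.C, and within Mith from -0.13 to 0.049 for Btg2 1416250_at, -0.092 to 0.044 for Btg2 1448272_at and -0.16 to 0.0044 for Jund. Interactions ran from -0.045 to 0.090 for Btg2 1448272_at, -0.012 to 0.14 for Ier2, -0.043 to 0.19 for Jun 1417409_at, -0.12 to 0.059 for Jun 1448694_at and -0.17 to 0.0032 for Jund. M.C minus Mith ran from -0.031 to 0.086 for Btg2 1416250_at and -0.0099 to 0.093 for Jun 1417409_at. Relative to Fos the ranges were -0.045 to 0.10 for Fosb, -0.045 to 0.076 for Fosl2, -0.10 to 0.086 for Jund, -0.11 to 0.031 for Ier2 and -0.045 to 0.088 for Btg2 1416250_at. The difference between the Jun probe sets ran from -0.47 to -0.31, with exact permutation p from 0.00857 to 0.0471. No detection calls were used, so whether the dim probe sets of Fosb, Ier2 and Jun 1417409_at lie near background was not tested.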
